A study of Mus musculus with 9 samples.

Results

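Matrix metalloproteinases (Mmp), ADAMTS proteinases (Adamts) and the tissue inhibitors of metalloproteinases (Timp) were followed in mouse brain after intracerebral haemorrhage (ICH). The members were the genes of the deposited table whose symbol is Mmp, Adamts or Timp followed by a number, with symbols ending in -ps left out. This rule took 42 of 35112 genes, namely 19 Mmp, 19 Adamts and 4 Timp genes. None of the 42 was at 0 in every library, so no member counted as undetected, and all 42 passed the filter on low counts. Genes of these families without a row in the deposited table, such as Mmp1b, could not be counted. Brain RNA with poly(A) tails was read in 3 groups of 3 wild type C57BL/6 mice each. The groups were ICH with P7C3-A20 treatment (ICH+P7C3-A20), ICH without it, and sham, all taken 72 h after the procedures. P7C3-A20 is a small molecule known for neuroprotection in rodents. The labels give no age, sex, brain region, method of inducing the bleed, dose or vehicle.

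MMPs and ADAMTS enzymes are zinc-dependent proteinases, made as inactive proenzymes, that cut the extracellular matrix. MMPs cut collagens, laminins and fibronectin, whereas ADAMTS enzymes process procollagens, cleave the lecticans of brain matrix or trim von Willebrand factor. TIMPs bind the active site of MMPs, and Timp3 also inhibits several ADAMTS enzymes. In brain the gelatinases and stromelysins are known for cutting basal lamina and tight junction proteins of the blood-brain barrier after injury. Transcript levels do not report how much proenzyme is activated or inhibited.

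Libraries held 51537047 to 63324728 estimated counts, and values below are in CPM (counts scaled to library size, with TMM normalization), in the order of replicates 1, 2 and 3. In a single library 3 counts corresponded to 0.0455 to 0.0625 CPM, a limit that covers counting error only. Means are given ± SD with n = 3, and log2 changes ± a standard error derived from the edgeR fit of all 9 libraries. Markers of the labelled tissue were present in every library, with summed pan-neuronal markers at 3157 to 5139 CPM in ICH+P7C3-A20, 2449.9 to 2779 CPM in ICH and 3917 to 4492 CPM in sham. Cortical neuron markers summed to 431 to 1323 CPM in ICH+P7C3-A20, 198 to 291 CPM in ICH and 192 to 402 CPM in sham, so that every ICH+P7C3-A20 library lay above both other groups. In its group ICH+P7C3-A20 1 had far more transcripts of cortical neuron markers, at 1323 CPM against 430.9 and 528 CPM in ICH+P7C3-A20 2 and 3, and fewer of oligodendrocyte markers, at 5529 CPM against 10759 and 11553 CPM. Sham 3 stood apart from the other sham libraries, with summed thalamic and hypothalamic markers at 61.0 CPM against 240.4 and 316 CPM in sham 1 and 2. Choroid plexus markers varied widely within each group, from 86.2 to 2128 CPM in ICH+P7C3-A20, 35.1 to 3230 CPM in ICH and 28.8 to 649 CPM in sham. Counts of members called were therefore also taken without each library.

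ICH was compared with sham to see how these transcripts differ after a bleed. The inhibitor Timp1, the macrophage elastase Mmp12, the neutrophil collagenase Mmp8, the stromelysin Mmp3, the gelatinase Mmp2, the membrane-type Mmp14 and the aggrecanase Adamts1 were among the members that rose. edgeR called 25 of 42 members (59.5%, against 26.0% of all 21900 genes tested), 22 higher (15.6% of all genes) and 3 lower (10.4% of all genes). The 3 that fell were Mmp24, Adamts3 and Adamts18. Of the families, 13 of 19 Mmp genes rose and 1 fell, 7 of 19 Adamts genes rose and 2 fell, and 2 of 4 Timp genes rose. The median log2 change of the members was 0.81, against 0.00 for all genes. ICH and sham libraries did not overlap for 31 members (42.1% of all genes), 26 of them higher in ICH (23.3% of all genes) and 5 lower (18.8% of all genes). Limma on quantile-normalized FPKM called 17 higher and 5 lower, and DESeq2 22 higher and 4 lower. Limma on quantile-normalized FPKM lost the calls of Adamts5, Adamts7, Adamts10, Mmp11 and Timp4. On log2(FPKM + 1) and log2(FPKM + 0.1) limma lost those of Adamts3, Adamts10 and Adamts18, and on log2(FPKM + 0.1) that of Adamts5 as well.

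Mmp3, Mmp8, Mmp10, Mmp12, Mmp13 and Mmp27 had fewer than 10 counts in every sham library and passed the filter through the injured brains, so that their direction was fixed by the filter. Among the other 36 members, 16 were called higher and 3 lower in ICH, their median log2 change was 0.45, and ICH and sham did not overlap for 25, 20 of them higher. Of the other 13 Mmp genes, 7 rose and 1 fell, with a median log2 change of 1.10 and no overlap for 12. Of the 19 Adamts genes, 7 rose and 2 fell, with a median of 0.21 and no overlap for 11. Without any 1 of the 6 libraries compared, edgeR called 18 to 20 members higher and 1 to 3 lower. Lower calls numbered 1 without ICH 1 and 1 without ICH 2.

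**Figure D1:**
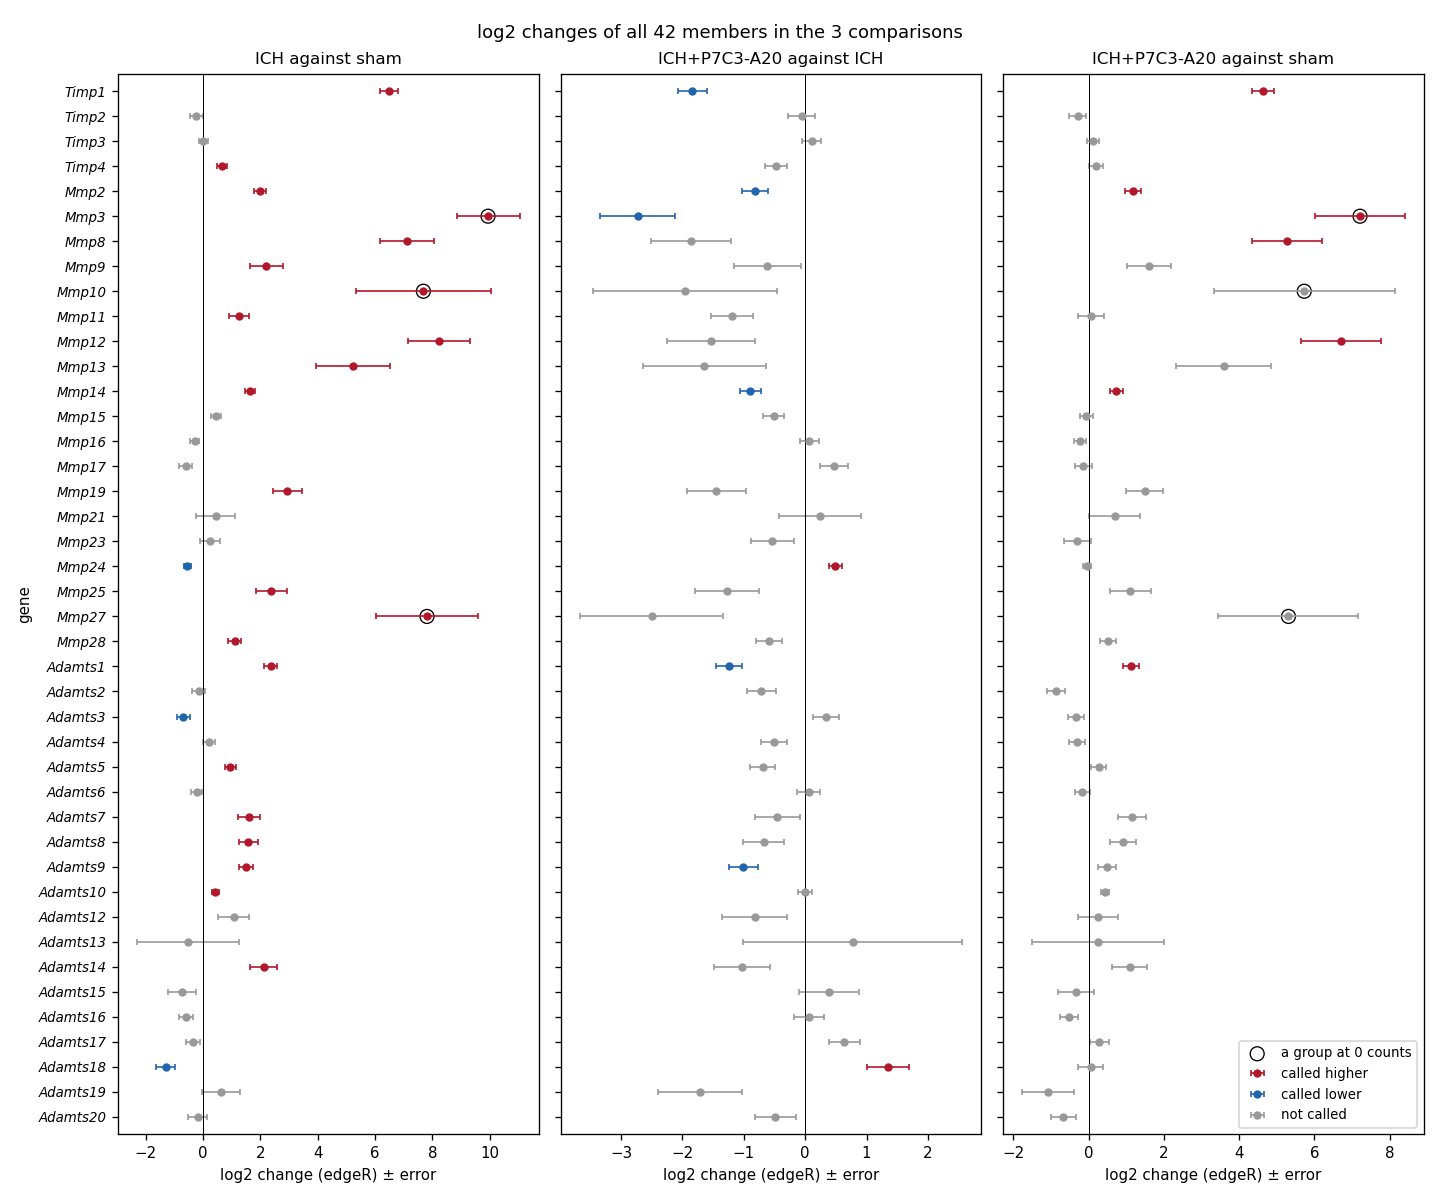
Log2 changes of the 42 members (rows, grouped as Timp, Mmp and Adamts) from edgeR in the 3 comparisons, with bars for the standard error and colours for calls at an adjusted p under 0.05. Open circles mark changes against a group at 0 counts, which depend on the fit's prior count. Calls numbered 22 higher and 3 lower for ICH against sham, 2 higher and 6 lower for ICH+P7C3-A20 against ICH, and 7 higher and 0 lower for the treated brains against sham.

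ICH+P7C3-A20 was compared with ICH to see how these transcripts differ between treated and untreated injured brain. Every ICH+P7C3-A20 library also had more cortical neuron markers than ICH, as given above. The part of the tissue taken in these differences was not tested. edgeR called 8 of 42 members (19%, against 8.74% of all genes tested), 6 lower (6.05% of all genes) and 2 higher (2.69% of all genes). Timp1, Adamts1, Mmp14, Adamts9, Mmp3 and Mmp2 fell, and Mmp24 and Adamts18 rose. The median log2 change of the members was -0.61, against -0.01 for all genes. Libraries did not overlap for 28 members (33.6% of all genes), 23 of them lower in ICH+P7C3-A20 (18.5% of all genes) and 5 higher (15.1% of all genes), and 21 members were at an unadjusted p under 0.05 (24.3% of all genes). Mmp3, called lower here, is 1 of the 6 members that passed the filter through the injured brains. Where the ICH libraries were needed to pass, a fall against ICH was favoured. For the 36 members with at least 10 counts in a sham library the median was -0.51, with 5 called lower and 2 higher. Libraries did not overlap for 24 of these 36, 19 of them lower in ICH+P7C3-A20 and 5 higher. DESeq2 called 13 members lower, adding Adamts2, Adamts5, Mmp8, Mmp11, Mmp15, Mmp19 and Mmp28, and 2 higher. The limma alternatives added Adamts14, Mmp8, Mmp11, Mmp19, Mmp25 and Mmp27 in 1 or more of their settings. They lost the call of Adamts18 in every setting and that of Mmp24 on log2(FPKM + 1) and log2(FPKM + 0.1). On log2(FPKM + 0.1) the calls of Mmp2 and Adamts9 were lost as well.

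These calls depended on single libraries. Leaving out 1 library in turn gave 2 to 7 lower and 0 to 2 higher calls. Without ICH+P7C3-A20 1, the library that stood apart, edgeR called 3 members lower (Timp1, Adamts1 and Mmp14) and neither of the 2 higher calls remained. The same 3 were called lower without ICH 1 or ICH 3, and Timp1 and Adamts1 without ICH 2, again with no call for Mmp24 or Adamts18. Without ICH+P7C3-A20 2 or ICH+P7C3-A20 3, 7 were called lower and 2 higher. Of the 8 members, Timp1 and Adamts1 were called in all 6 of these fits, Mmp14 in 5, and Mmp3, Mmp24 and Adamts18 in 2. Adamts9 and Mmp2 were called in 0 of the 6, at edgeR adjusted p of 0.0610 to 0.113 for Adamts9 and 0.0657 to 0.126 for Mmp2.

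**Figure D2:**
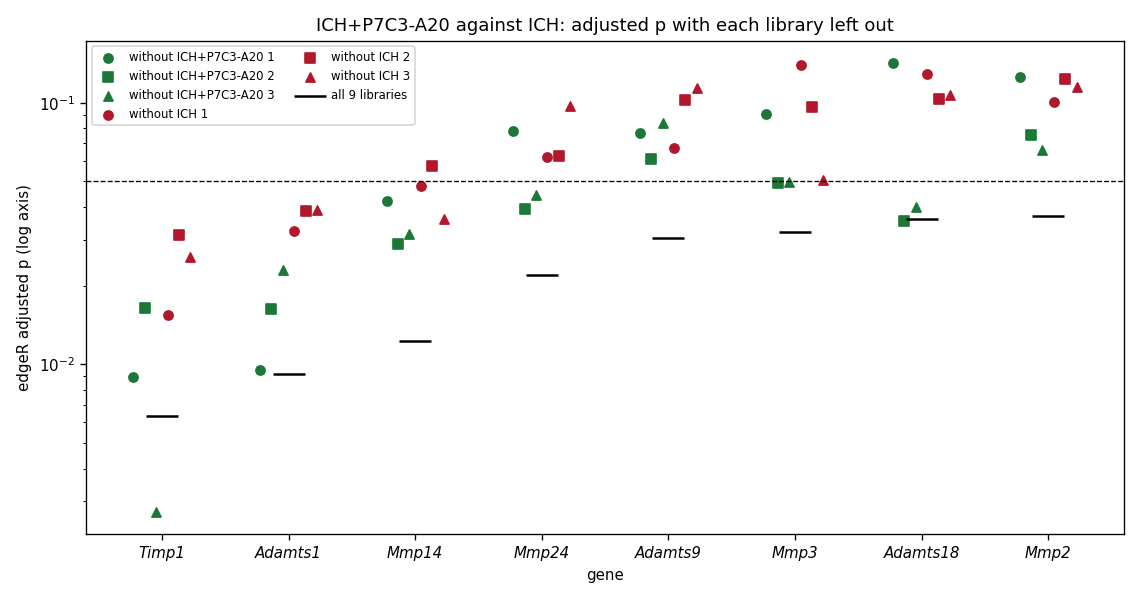
edgeR adjusted p (log axis) of the 8 members called in ICH+P7C3-A20 against ICH, with all 9 libraries (black bars) and with each library of the 2 groups left out (points, coloured by the group of the library left out). The dashed line is the threshold of 0.05, and Timp1 and Adamts1 have every point under it.

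Set against sham, ICH+P7C3-A20 brains had fewer members called higher than ICH brains had. edgeR called 7 of 42 higher (16.7%, against 4.58% of all genes), namely Timp1, Mmp12, Mmp8, Mmp2, Mmp3, Adamts1 and Mmp14. It called 0 lower (0.744% of all genes), with 1 member (Adamts2) lower at an unadjusted p under 0.05, and DESeq2 called 1 lower (Adamts2) and 10 higher, adding Adamts10, Mmp13 and Mmp19. In either direction 5.32% of all genes were called. Libraries did not overlap for 16 members (20.4% of all genes), 14 of them higher (12.6% of all genes) and 2 lower (7.84% of all genes). Of the 36 members with at least 10 counts in a sham library, 4 were called higher. Libraries did not overlap for 12 of these 36, 10 of them higher in ICH+P7C3-A20 and 2 lower. Without single libraries 5 to 8 members were called higher and 0 to 2 lower, and the 2 lower calls came without sham 3 (Adamts2 and Timp2). Limma on log2(FPKM + 1) called 1 higher (Timp1), and edgeR on these groups alone called 2 (Timp1 and Mmp12). On quantile-normalized FPKM limma called 2 (Timp1 and Mmp2), and on log2(FPKM + 0.1) it lost the calls of Adamts1, Mmp14 and Mmp3. The comparisons with sham share the sham libraries, and ICH+P7C3-A20 against ICH shares the ICH libraries with ICH against sham, so that the values below are given side by side and not as separate evidence.

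Timp1 encodes a secreted inhibitor of most MMPs and had the smallest adjusted p of the members in all 3 comparisons. It lies on the X chromosome (ENSMUSG00000001131, chromosome X, 20870166 to 20874735) inside an intron of Syn1 on the opposite strand, with 0 exon bases shared. Timp1 had 9.02, 10.8 and 18.3 CPM in ICH+P7C3-A20, 46.2, 47.2 and 43.5 CPM in ICH and 0.632, 0.405 and 0.485 CPM in sham. The ICH libraries lay close together and far above sham, the ICH+P7C3-A20 libraries lay between, and no 2 groups overlapped. Timp1 rose 89.6-fold in ICH against sham (log2 change 6.49 ± 0.31, edgeR adjusted p = 3.38e-06). It was 3.59-fold lower in ICH+P7C3-A20 than in ICH (log2 change -1.84 ± 0.24, edgeR adjusted p = 0.00634) and 25.0-fold higher than in sham (log2 change 4.64 ± 0.29, edgeR adjusted p = 7.85e-05). With single libraries left out, the change of ICH+P7C3-A20 against ICH ranged from -2.20 to -1.65. In bulk tissue, fewer cells of a type and less RNA per cell cannot be told apart. Reactive astrocyte markers, a list without Timp1, summed to 1191 to 2312 CPM in ICH+P7C3-A20, 4505 to 5415 CPM in ICH and 145 to 224 CPM in sham. All 9 markers of that list rose in ICH and all 9 fell in ICH+P7C3-A20 against ICH, and none was at 0 in a group. Their part in the Timp1 result was not tested.

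Timp2, which inhibits MMPs and helps cell-surface activation of pro-Mmp2, was the member with the highest level per transcript length in every group. Its level was 62.2 ± 3.10 FPKM in ICH+P7C3-A20, 67.5 ± 5.09 FPKM in ICH and 75.3 ± 22.3 FPKM in sham. In depth-scaled counts Timp2 had 317, 269.7 and 295 CPM in ICH+P7C3-A20, 324, 299 and 294 CPM in ICH and 442, 424 and 212 CPM in sham. Sham 3 lay below all other libraries and the other 2 sham libraries above all of them. Timp2 was not called in ICH against sham (log2 change -0.23 ± 0.23, edgeR adjusted p = 0.514) or in ICH+P7C3-A20 against sham (-0.29 ± 0.23, edgeR adjusted p = 0.576). Without sham 3 it was called lower than sham in both, with log2 changes of -0.50 in ICH (edgeR adjusted p = 0.00725) and -0.56 in ICH+P7C3-A20 (edgeR adjusted p = 0.0154). Between ICH+P7C3-A20 and ICH its log2 change was -0.06 ± 0.23.

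Timp3, the matrix-bound inhibitor that also acts on ADAMTS enzymes and Adam17, had 181, 166 and 172 CPM in ICH+P7C3-A20, 159.5, 159 and 165 CPM in ICH and 184, 181 and 115 CPM in sham. Its levels in the injured groups lay within the sham range, in which sham 3 was again the lowest. Timp3 was not called in any comparison, with log2 changes of 0.01 ± 0.16 for ICH against sham, 0.10 ± 0.16 for ICH+P7C3-A20 against ICH and 0.12 ± 0.16 for the treated brains against sham. The direction against sham turned with the scaling, at -0.03 with upper-quartile scaling in ICH. Of its exon bases 21.3% lie opposite exons of Syn3, and since it is not stated whether the counting used strand, reads of the 2 genes may not have been told apart.

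Timp4, an inhibitor known from brain and heart, had 21.6, 29.6 and 38.8 CPM in ICH+P7C3-A20, 42.9, 41.9 and 40.1 CPM in ICH and 24.4, 30.5 and 24 CPM in sham. Every ICH library exceeded every other library. Timp4 rose 1.58-fold in ICH against sham (log2 change 0.66 ± 0.19, edgeR adjusted p = 0.0241), and the call ended in 5 of 6 fits without a library, at edgeR adjusted p of 0.0535 without ICH 3 to 0.0851 without sham 1. Without ICH 1, ICH 2 and sham 3 it was 0.0723, 0.0659 and 0.0622. It was not called in ICH+P7C3-A20 against ICH (log2 change -0.47 ± 0.19, edgeR adjusted p = 0.145) or against sham (0.19 ± 0.19, edgeR adjusted p = 0.682). ICH+P7C3-A20 1 was the lowest of its group and ICH+P7C3-A20 3 the highest, and without ICH+P7C3-A20 3 a fall against ICH was called (-0.70, edgeR adjusted p = 0.0394).

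Of the secreted collagenases, stromelysins and the macrophage elastase, 6 genes are neighbours on chromosome 9 among the genes of the deposited table. Mmp1b, which has no row there, overlaps Mmp12 on the opposite strand in GENCODE M21, with 157 exon bases shared. In the deposited coordinates, which for 35 of 42 members are identical to GENCODE M21 (GRCm38), Mmp13, Mmp12, Mmp3, Mmp10, Mmp8 and Mmp27 follow each other on the plus strand from 7272514 to 7581415, a span of 308.9 kb with 6 genes of the table. All 6 were near or at 0 in sham and were called higher in ICH, a direction that the filter fixed as stated above. RefSeq promoter windows (GRCm38.p6, 250 bases before to 50 after the start, read on the strand of the gene) matched 28 of 42 members by symbol, with 30 windows. The AP-1 motif TGANTCA, searched on both strands, was present in 4 of these 30 windows (13.3%) and in 2565 of 32851 windows in all (7.81%). All 4 belong to neighbours in this run and are shown for that reason, with the AP-1 match in capitals. Mmp8 and Mmp27 were called higher in ICH as well, and their windows held no TGANTCA. The printed windows are on the plus strand, at chr9:7272264-7272563 for the collagenase Mmp13, chr9:7347124-7347423 for the later of 2 annotated starts of the elastase Mmp12, chr9:7445572-7445871 for the stromelysin Mmp3 and chr9:7502092-7502391 for the stromelysin Mmp10.
Mmp13: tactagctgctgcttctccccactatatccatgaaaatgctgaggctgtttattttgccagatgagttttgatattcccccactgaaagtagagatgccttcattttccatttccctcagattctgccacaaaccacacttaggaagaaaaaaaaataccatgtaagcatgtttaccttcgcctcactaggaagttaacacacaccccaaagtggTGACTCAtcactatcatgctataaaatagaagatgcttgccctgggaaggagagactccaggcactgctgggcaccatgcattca
Mmp12: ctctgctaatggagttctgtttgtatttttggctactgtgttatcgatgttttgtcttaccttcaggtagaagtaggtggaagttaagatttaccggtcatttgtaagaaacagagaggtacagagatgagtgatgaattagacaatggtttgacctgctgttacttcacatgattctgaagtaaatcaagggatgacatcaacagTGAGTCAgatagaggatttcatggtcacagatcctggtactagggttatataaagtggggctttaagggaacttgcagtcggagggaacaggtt
Mmp3: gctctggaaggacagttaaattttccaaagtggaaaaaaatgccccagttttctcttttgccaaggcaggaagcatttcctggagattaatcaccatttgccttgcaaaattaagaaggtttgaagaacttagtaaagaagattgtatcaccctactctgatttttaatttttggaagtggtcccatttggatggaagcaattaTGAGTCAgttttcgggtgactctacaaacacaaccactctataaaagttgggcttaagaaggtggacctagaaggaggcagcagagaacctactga
Mmp10: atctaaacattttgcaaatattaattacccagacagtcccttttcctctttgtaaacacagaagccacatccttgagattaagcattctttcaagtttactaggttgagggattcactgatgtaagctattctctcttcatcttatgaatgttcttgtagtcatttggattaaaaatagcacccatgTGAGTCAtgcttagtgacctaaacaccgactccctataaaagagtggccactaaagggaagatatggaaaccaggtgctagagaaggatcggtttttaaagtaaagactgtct
The match began at position -35 relative to the start in Mmp13, -44 in Mmp12, -46 in Mmp3 and -63 in Mmp10. The window at the earlier start of Mmp12 held no TGANTCA. The ETS motif AGGAAG was in 12 of 30 member windows (40.0%, against 35.4% of all windows), and the STAT motif TTCNNNGAA in 2 of 30 (6.67%, against 8.30%). Both STAT windows are overlapping windows of Mmp23 that hold the same site, so 1 member had a match. AGGAAG and TGANTCA share no bases in the printed windows, and a match is a description of letters and not of binding.

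Mmp3, stromelysin-1, cuts laminin, fibronectin and proteoglycans and can activate pro-Mmp9. Mmp3 had 0.375, 0.124 and 0.482 CPM in ICH+P7C3-A20, 3.23, 2.10 and 1.16 CPM in ICH and 0, 0 and 0 CPM in sham. Sham libraries were at 0, every ICH library was above every ICH+P7C3-A20 library, and ICH 1 was the highest. Mmp3 was at least 126-fold higher in ICH than in sham (edgeR adjusted p = 2.93e-04) and at least 18.2-fold higher in ICH+P7C3-A20 than in sham (edgeR adjusted p = 0.0104), against a floor of 3 counts over the sham group. No limma setting called the second of these (limma adjusted p of 0.128 to 0.644). Mmp3 was 6.64-fold lower in ICH+P7C3-A20 than in ICH (log2 change -2.73 ± 0.62, edgeR adjusted p = 0.0321). That call ended without ICH 1 (log2 change -2.32, edgeR adjusted p = 0.139), ICH 2 (-2.74, 0.0965), ICH 3 (-3.03, 0.0506) and ICH+P7C3-A20 1 (-2.85, 0.0907). Mmp3 and Mmp10 share 8.39% and 8.37% of their transcript 50-mers with transcripts of other genes, each other among them, so that reads there are uncertain between genes.

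Mmp12, the macrophage elastase, had 1.79, 19.9 and 9.54 CPM in ICH+P7C3-A20, 22.1, 31.2 and 37.5 CPM in ICH and 0.162, 0.147 and 0 CPM in sham. ICH libraries were the highest, ICH+P7C3-A20 libraries lay below them with ICH+P7C3-A20 1 far under the other 2, and sham summed to 17 counts. Mmp12 rose in ICH against sham (log2 change 8.24 ± 1.09, edgeR adjusted p = 7.79e-04) and in ICH+P7C3-A20 against sham (log2 change 6.70 ± 1.06, edgeR adjusted p = 0.00857). Without sham 3, which had 0 counts, these changes were 7.59 and 6.06, and without ICH+P7C3-A20 2 the second was 5.82. Limma did not call the second on log2(FPKM + 1) (limma adjusted p = 0.205) or on quantile-normalized FPKM (0.142). ICH+P7C3-A20 against ICH was not called (log2 change -1.54 ± 0.72, edgeR adjusted p = 0.237). Markers of monocytes and macrophages, 12 of 12 of them detected in every group, summed to 209 to 368 CPM in ICH+P7C3-A20, 748 to 909 CPM in ICH and 80.6 to 109 CPM in sham. Of the 12, 11 rose and 1 fell in ICH, and 8 fell in ICH+P7C3-A20 against ICH. Their part in the Mmp12 result was not tested.

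Mmp8, the neutrophil collagenase, had 0.396, 0.620 and 1.81 CPM in ICH+P7C3-A20, 2.47, 4.75 and 3.04 CPM in ICH and 0, 0 and 0.0607 CPM in sham. Sham had 4 counts in all, in sham 3, and ICH lay above ICH+P7C3-A20 without overlap. Mmp8 rose in ICH against sham (log2 change 7.13 ± 0.94, edgeR adjusted p = 3.38e-04) and in ICH+P7C3-A20 against sham (5.27 ± 0.93, edgeR adjusted p = 0.00893). Without sham 3 the sham group was at 0 and the fitted changes (10.57 and 8.71) are no bounds, and without ICH+P7C3-A20 3 the second was 4.39. Limma did not call the second on log2(FPKM + 1) (limma adjusted p = 0.287) or on quantile-normalized FPKM (0.254). Nor did edgeR on the 2 groups alone (edgeR adjusted p = 0.0647). ICH+P7C3-A20 against ICH was not called (-1.86 ± 0.65, edgeR adjusted p = 0.107), though it was without ICH+P7C3-A20 3 (-2.74, edgeR adjusted p = 0.0474) and with DESeq2 (adjusted p = 0.0241). Neutrophil markers, of which 6 of 10 passed the filter, summed to 21.1 to 38.1 CPM in ICH+P7C3-A20, 36.6 to 64.9 CPM in ICH and 8.34 to 10.04 CPM in sham. Ly6g was at 0 in every ICH and sham library, and Cxcr2 and Elane in every sham library. Of the 6, 3 rose in ICH and 1 fell in ICH+P7C3-A20 against ICH, and their part in the Mmp8 result was not tested.

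The other 3 genes of the run were lower still. Mmp13, collagenase-3, averaged 0.301 ± 0.260 CPM in ICH+P7C3-A20, 0.959 ± 0.633 CPM in ICH and 0.0245 ± 0.0425 CPM in sham (ICH against sham log2 change 5.23 ± 1.28, edgeR adjusted p = 0.0125). Mmp10, stromelysin-2, averaged 0.116 ± 0.200 CPM in ICH+P7C3-A20 and 0.451 ± 0.240 CPM in ICH and was at 0 in sham, at least 26.7-fold higher in ICH (edgeR adjusted p = 0.0421). That call ended without any 1 of the 6 libraries. Mmp27 averaged 0.0849 ± 0.0983 CPM in ICH+P7C3-A20 and 0.493 ± 0.212 CPM in ICH and was at 0 in sham, at least 28.4-fold higher in ICH (edgeR adjusted p = 0.0127). None of the 3 was called between ICH+P7C3-A20 and ICH, at edgeR adjusted p of 0.362, 0.488 and 0.236.

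The gelatinases Mmp2 and Mmp9 cut denatured collagen and collagen IV of the basal lamina. Mmp2 (ENSMUSG00000031740, chromosome 8, 92827291 to 92853420), which is widely made by vascular and mesenchymal cells, had 5.10, 5.36 and 5.97 CPM in ICH+P7C3-A20, 9.11, 10.2 and 9.66 CPM in ICH and 1.93, 3.09 and 2.21 CPM in sham. The 3 groups did not overlap, and replicates lay close together within each. Mmp2 rose 4.0-fold in ICH against sham (log2 change 2.0 ± 0.21, edgeR adjusted p = 8.51e-05) and 2.27-fold in ICH+P7C3-A20 against sham (1.18 ± 0.21, edgeR adjusted p = 0.00910). It was 1.76-fold lower in ICH+P7C3-A20 than in ICH (log2 change -0.82 ± 0.21, edgeR adjusted p = 0.0369), a call that ended without any 1 of the 6 libraries, with log2 changes of -0.88 to -0.77 and edgeR adjusted p of 0.0657 to 0.126. The rise in ICH+P7C3-A20 against sham was not called by limma on log2(FPKM + 1) (limma adjusted p = 0.0545). Nor was it by edgeR on the 2 groups alone (edgeR adjusted p = 0.0685). Mural and fibroblast markers summed to 309.7 to 355 CPM in ICH+P7C3-A20, 366 to 414 CPM in ICH and 209 to 261 CPM in sham, with 6 of 9 markers called higher in ICH against sham and none at 0 in a group. In ICH+P7C3-A20 against ICH, edgeR called 0 of the 9, with 1 higher and 3 lower at an unadjusted p under 0.05 and 1 lower with DESeq2. In ICH+P7C3-A20 against sham, edgeR called 0 of the 9, with 6 higher at an unadjusted p under 0.05 and 3 higher with DESeq2. Their part in the Mmp2 result was not tested.

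Mmp9 (ENSMUSG00000017737, chromosome 2, 164940780 to 164955850), the gelatinase of neutrophils and activated glia, had 1.17, 1.12 and 2.72 CPM in ICH+P7C3-A20, 2.30, 3.38 and 1.98 CPM in ICH and 0.956, 0.533 and 0.167 CPM in sham. ICH lay above sham without overlap, and ICH+P7C3-A20 3 lay within the ICH range while the other 2 of its group did not. Mmp9 rose 4.63-fold in ICH against sham (log2 change 2.21 ± 0.59, edgeR adjusted p = 0.0181). The call ended without ICH 2 (edgeR adjusted p = 0.0656) and sham 2 (0.0543), and without sham 1 the change was 2.87. Mmp9 was not called in ICH+P7C3-A20 against ICH (-0.61 ± 0.55, edgeR adjusted p = 0.563) or against sham (1.60 ± 0.58, edgeR adjusted p = 0.169). Summed neutrophil markers were likewise highest in ICH+P7C3-A20 3 among its group, at 38.1 CPM against 22.6 and 21.1 CPM in replicates 1 and 2, and their part in the Mmp9 result was not tested.

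**Figure D3:**
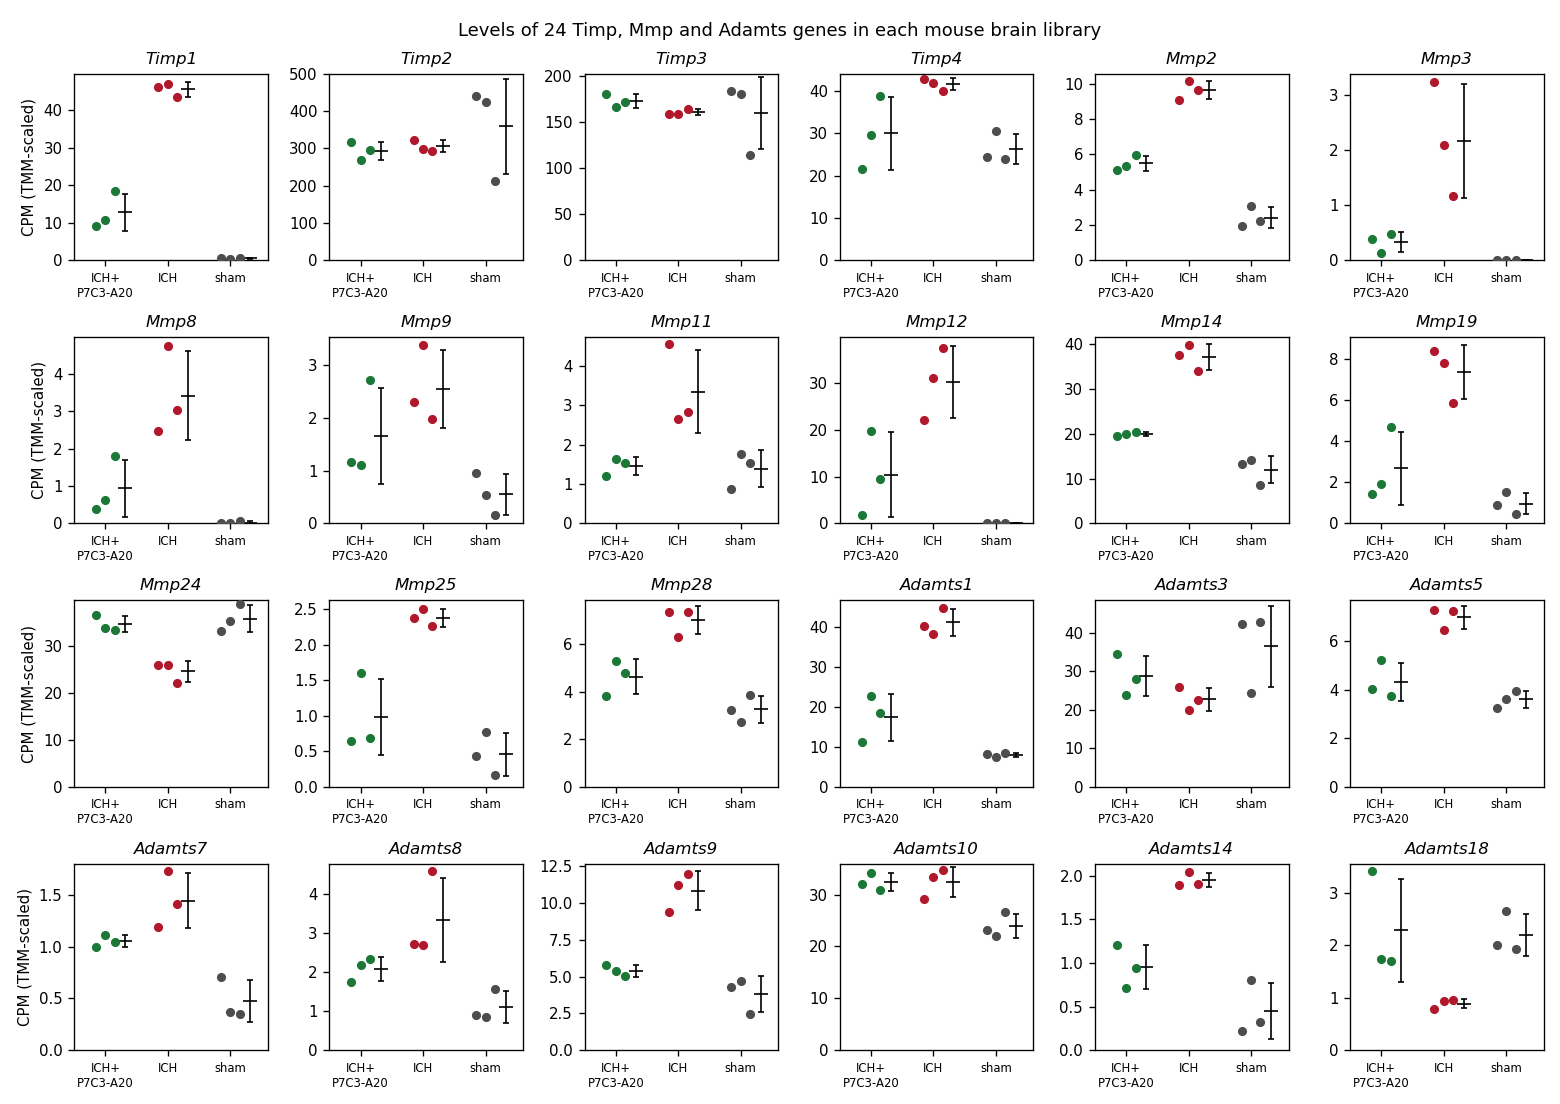
CPM in each library (points, replicates 1 to 3 from left to right) with mean and SD (black bars) for the 24 members printed with values in every library, in ICH+P7C3-A20, ICH and sham. Each panel has its own axis from 0. Timp1, Mmp2, Mmp14 and Adamts1 show ICH above ICH+P7C3-A20 and both above sham with no overlap, whereas Mmp24 shows ICH below both other groups.

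The membrane-type MMPs are anchored at the cell surface. Mmp14, which activates pro-Mmp2 together with Timp2 and cuts collagen, had 19.5, 19.9 and 20.5 CPM in ICH+P7C3-A20, 37.6, 39.7 and 34.0 CPM in ICH and 13.2, 14.2 and 8.58 CPM in sham. The groups did not overlap, and the ICH+P7C3-A20 libraries differed from each other by little. Mmp14 rose 3.10-fold in ICH against sham (log2 change 1.63 ± 0.17, edgeR adjusted p = 7.77e-05) and was 1.86-fold lower in ICH+P7C3-A20 than in ICH (-0.90 ± 0.17, edgeR adjusted p = 0.0123). The second call ended without ICH 2 (log2 change -0.84, edgeR adjusted p = 0.0573). Mmp14 was also 1.67-fold higher in ICH+P7C3-A20 than in sham (0.74 ± 0.17, edgeR adjusted p = 0.0326). This call ended without ICH+P7C3-A20 2 (edgeR adjusted p = 0.0775), ICH+P7C3-A20 3 (0.113) and sham 1 (0.0654). It also ended with every limma setting and with edgeR on the 2 groups alone. Homeostatic microglia markers summed to 476 to 754 CPM in ICH+P7C3-A20, 1045 to 1127 CPM in ICH and 263 to 299 CPM in sham, with 8 of 8 higher in ICH and 4 of 8 lower in ICH+P7C3-A20 against ICH, and endothelial markers to 301 to 363 CPM in ICH+P7C3-A20, 409.9 to 449 CPM in ICH and 218 to 254 CPM in sham. None of these markers was at 0 in a group, and their part in the Mmp14 result was not tested.

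Mmp24, a membrane-type MMP of neurons, moved the other way. It had 36.6, 33.8 and 33.5 CPM in ICH+P7C3-A20, 26.0, 25.9 and 22.0 CPM in ICH and 33.2, 35.4 and 38.9 CPM in sham. All ICH libraries lay below those of both other groups, which overlapped each other. Mmp24 fell in ICH, 1.45-fold lower than in sham (log2 change -0.54 ± 0.11, edgeR adjusted p = 0.00453), and was 1.41-fold higher in ICH+P7C3-A20 than in ICH (0.49 ± 0.11, edgeR adjusted p = 0.0220). Against sham ICH+P7C3-A20 was not called (-0.05 ± 0.11, edgeR adjusted p = 0.887). The rise against ICH was not called without ICH 1 (edgeR adjusted p = 0.0623), ICH 2 (0.0627), ICH 3 (0.0975) or ICH+P7C3-A20 1 (0.0780). Summed pan-neuronal markers, given above, were likewise lower in every ICH library than in both other groups, with 7 of 8 markers lower in ICH and 1 of 8 higher in ICH+P7C3-A20 against ICH. Their highest library was ICH+P7C3-A20 1, at 5139 CPM. Cortical neuron markers, given above, were higher in every ICH+P7C3-A20 library than in both other groups, with 1 of 6 called higher against ICH. Striatal projection neuron markers summed to 1812 to 2650 CPM in ICH+P7C3-A20, 1969 to 2320 CPM in ICH and 2956 to 4878 CPM in sham. Of these 8 markers, 8 were lower in ICH than in sham and 0 were called in ICH+P7C3-A20 against ICH. Against sham, 3 of the 8 were called lower in ICH+P7C3-A20. The part of these lists in the Mmp24 result was not tested. Exons of BC029722 on the opposite strand overlap 13.6% of the Mmp24 exon bases.

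Mmp25, a membrane-type MMP of leukocytes, had 0.646, 1.60 and 0.694 CPM in ICH+P7C3-A20, 2.37, 2.51 and 2.26 CPM in ICH and 0.433, 0.772 and 0.167 CPM in sham. ICH lay above both other groups, and ICH+P7C3-A20 2 was the highest of its group. Mmp25 rose 5.21-fold in ICH against sham (log2 change 2.38 ± 0.54, edgeR adjusted p = 0.00871, and 2.99 without sham 2). It was not called in ICH+P7C3-A20 against ICH (-1.27 ± 0.52, edgeR adjusted p = 0.161). Mmp17, a glycolipid-anchored MMP, was the Mmp gene with the highest level per length in all groups, at 14.2 ± 1.97 FPKM in ICH+P7C3-A20, 10.7 ± 2.21 FPKM in ICH and 16.0 ± 7.82 FPKM in sham, and was not called in any comparison. Its sham mean rested on sham 3, at 25.1 FPKM against 11.3 and 11.7 FPKM in sham 1 and 2. Without sham 1 or sham 2, and with DESeq2, Mmp17 was called lower in ICH than in sham. Mmp15 and Mmp16 were not called in any comparison by edgeR on all libraries, with log2 changes for ICH against sham of 0.45 ± 0.17 and -0.29 ± 0.15. Mmp15 was called lower in ICH+P7C3-A20 than in ICH by DESeq2 and without ICH+P7C3-A20 2, and higher in ICH than in sham without sham 2. Mmp16 was called lower in ICH than in sham by limma on quantile-normalized FPKM, as was Adamts16.

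Among the remaining MMPs, Mmp19, a secreted enzyme that cuts basement membrane proteins, had 1.44, 1.92 and 4.72 CPM in ICH+P7C3-A20, 8.39, 7.81 and 5.88 CPM in ICH and 0.902, 1.51 and 0.470 CPM in sham. ICH lay above both other groups, and ICH+P7C3-A20 3 was well above the rest of its group. Mmp19 rose 7.69-fold in ICH against sham (log2 change 2.94 ± 0.51, edgeR adjusted p = 0.00197). ICH+P7C3-A20 against ICH was not called (-1.45 ± 0.48, edgeR adjusted p = 0.0898) but was without ICH+P7C3-A20 3 (-2.13, edgeR adjusted p = 0.0281) and with DESeq2 (adjusted p = 0.0194). Exons of Tmem198b on the opposite strand overlap 22.3% of the Mmp19 exon bases.

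Mmp28, or epilysin, had 3.83, 5.27 and 4.78 CPM in ICH+P7C3-A20, 7.34, 6.31 and 7.34 CPM in ICH and 3.21, 2.72 and 3.85 CPM in sham. ICH was above both other groups, which overlapped. Mmp28 rose 2.14-fold in ICH against sham (log2 change 1.10 ± 0.21, edgeR adjusted p = 0.00367) and was not called in ICH+P7C3-A20 against ICH (-0.60 ± 0.21, edgeR adjusted p = 0.110), though it was with DESeq2 (adjusted p = 0.0334). Exons of 1700020L24Rik on the opposite strand overlap 12% of the Mmp28 exon bases. Mmp11, or stromelysin-3, had 1.21, 1.64 and 1.52 CPM in ICH+P7C3-A20, 4.55, 2.65 and 2.82 CPM in ICH and 0.866, 1.77 and 1.53 CPM in sham. ICH was again above both other groups, with ICH 1 the highest. It rose 2.40-fold in ICH against sham (log2 change 1.27 ± 0.34, edgeR adjusted p = 0.0204), a call that ended without ICH 1 (0.98, edgeR adjusted p = 0.0971) and sham 1 (1.02, 0.0675). ICH+P7C3-A20 against ICH was not called for Mmp11 (-1.19 ± 0.34, edgeR adjusted p = 0.0565), but it was with DESeq2 (adjusted p = 0.0106), with the stricter filter (0.0493), with limma on log2(FPKM + 1) (0.0494) and in the 2 groups alone (0.0419). Exons of Chchd10 on the opposite strand overlap 5.58% of the Mmp11 exon bases. Mmp21 and Mmp23 were not called in any comparison and averaged 0.159 to 0.259 CPM and 1.3 to 1.89 CPM over the groups.

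The ADAMTS aggrecanases cut lecticans such as brevican and versican. Adamts1 (ENSMUSG00000022893, chromosome 16, 85793827 to 85803113), which also binds vascular endothelial growth factor, had 11.1, 22.7 and 18.4 CPM in ICH+P7C3-A20, 40.2, 38.2 and 44.7 CPM in ICH and 8.12, 7.50 and 8.36 CPM in sham. The groups did not overlap, ICH was the highest, and ICH+P7C3-A20 1 was the lowest of its group. Adamts1 rose 5.13-fold in ICH against sham (log2 change 2.36 ± 0.22, edgeR adjusted p = 3.94e-05) and was 2.36-fold lower in ICH+P7C3-A20 than in ICH (-1.24 ± 0.21, edgeR adjusted p = 0.00918). Without ICH+P7C3-A20 1 the second change was -1.0 (edgeR adjusted p = 0.00954). Against sham ICH+P7C3-A20 was 2.18-fold higher (1.12 ± 0.22, edgeR adjusted p = 0.0137), a call that ended without ICH+P7C3-A20 3 (edgeR adjusted p = 0.0605), sham 1 (0.0542) and sham 2 (0.0515). The same call ended with every limma setting and with edgeR on the 2 groups alone. Of the endothelial markers, summed above, 7 of 8 rose in ICH and 3 of 8 fell in ICH+P7C3-A20 against ICH, and their part in the Adamts1 result was not tested.

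Adamts9, which cuts versican and aggrecan, had 5.81, 5.35 and 5.03 CPM in ICH+P7C3-A20, 9.35, 11.2 and 11.9 CPM in ICH and 4.31, 4.71 and 2.46 CPM in sham. ICH was above both other groups, and ICH+P7C3-A20 was above sham with a small gap. Adamts9 rose 2.84-fold in ICH against sham (log2 change 1.5 ± 0.25, edgeR adjusted p = 0.00134). It was 2.01-fold lower in ICH+P7C3-A20 than in ICH (-1.01 ± 0.24, edgeR adjusted p = 0.0305), a call that ended without any 1 of the 6 libraries as given above, at log2 changes of -1.10 to -0.93. Exons of A730049H05Rik on the opposite strand overlap 9.18% of its exon bases.

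Adamts5, another aggrecanase, had 4.02, 5.22 and 3.72 CPM in ICH+P7C3-A20, 7.28, 6.44 and 7.24 CPM in ICH and 3.25, 3.60 and 3.94 CPM in sham. ICH was above both other groups, and Adamts5 rose 1.94-fold in ICH against sham (log2 change 0.96 ± 0.20, edgeR adjusted p = 0.00582). Limma did not call this rise on quantile-normalized FPKM (limma adjusted p = 0.0539) or on log2(FPKM + 0.1) (0.0556). ICH+P7C3-A20 against ICH missed the threshold (-0.69 ± 0.20, edgeR adjusted p = 0.0587) and passed it without ICH+P7C3-A20 2 (-0.85, edgeR adjusted p = 0.0437), with the stricter filter (0.0468) and with DESeq2 (adjusted p = 0.00661). Adamts8, a further aggrecanase, had 1.73, 2.17 and 2.33 CPM in ICH+P7C3-A20, 2.70, 2.69 and 4.57 CPM in ICH and 0.902, 0.846 and 1.56 CPM in sham. The groups did not overlap, and it rose 3.00-fold in ICH against sham (log2 change 1.58 ± 0.34, edgeR adjusted p = 0.00658) with no call against ICH for ICH+P7C3-A20 (-0.68 ± 0.33, edgeR adjusted p = 0.250). Exons of Gm29724 on the opposite strand overlap 10.6% of the Adamts8 exon bases. Adamts4, the aggrecanase with the highest level per length, was not called in any comparison. It averaged 6.08 ± 2.47 FPKM in ICH+P7C3-A20, 8.80 ± 0.918 FPKM in ICH and 7.40 ± 1.3 FPKM in sham. Adamts15 and Adamts20 were not called either, with log2 changes for ICH against sham of -0.72 ± 0.49 and -0.18 ± 0.33.

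The procollagen N-proteinases Adamts2, Adamts3 and Adamts14 trim fibrillar procollagens, and Adamts3 also cleaves reelin. Adamts14 had 1.21, 0.713 and 0.944 CPM in ICH+P7C3-A20, 1.9, 2.04 and 1.91 CPM in ICH and 0.217, 0.809 and 0.318 CPM in sham. ICH lay above both other groups, and sham 2 was the highest sham library. Adamts14 rose 4.35-fold in ICH against sham (log2 change 2.12 ± 0.48, edgeR adjusted p = 0.00802, and 2.85 without sham 2) and was not called in ICH+P7C3-A20 against ICH (-1.03 ± 0.46, edgeR adjusted p = 0.197). Adamts3 had 34.4, 23.9 and 28.0 CPM in ICH+P7C3-A20, 25.8, 19.8 and 22.5 CPM in ICH and 42.3, 24.2 and 42.7 CPM in sham. Sham 2 lay within the ICH range, so that the groups overlapped. Adamts3 fell in ICH, 1.60-fold lower than in sham (log2 change -0.68 ± 0.22, edgeR adjusted p = 0.0411). The call ended without ICH 1, 2 or 3 (edgeR adjusted p = 0.0600, 0.144 and 0.108) and without sham 1 or 3 (0.143 and 0.116). Neither Adamts3 nor Adamts2 was called between ICH+P7C3-A20 and ICH, at 0.34 ± 0.22 and -0.72 ± 0.23. Adamts2 was called lower in ICH+P7C3-A20 than in ICH by DESeq2 and without ICH+P7C3-A20 2.

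Adamts18, known for a role in eye development, had 3.42, 1.74 and 1.70 CPM in ICH+P7C3-A20, 0.790, 0.928 and 0.946 CPM in ICH and 2.0, 2.65 and 1.93 CPM in sham. ICH lay below both other groups, and ICH+P7C3-A20 1 was above all other libraries. Adamts18 fell in ICH, 2.46-fold lower than in sham (log2 change -1.3 ± 0.34, edgeR adjusted p = 0.0174), a call that ended without ICH 1 (edgeR adjusted p = 0.0661), ICH 2 (0.0522) and sham 2 (0.0571). It was 2.56-fold higher in ICH+P7C3-A20 than in ICH (1.36 ± 0.34, edgeR adjusted p = 0.0360). Without ICH+P7C3-A20 1, which was also the library with the most cortical neuron markers, the change was 0.95 (edgeR adjusted p = 0.142). The call also ended without ICH 1 (0.129), ICH 2 (0.103) and ICH 3 (0.107). Pan-neuronal and cortical neuron markers were also higher in every ICH+P7C3-A20 library than in ICH. Striatal projection neuron markers, given with Mmp24, overlapped between these groups. The part of these lists in the Adamts18 result was not tested.

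Adamts7, which cuts cartilage oligomeric matrix protein, had 1.0, 1.12 and 1.04 CPM in ICH+P7C3-A20, 1.19, 1.73 and 1.41 CPM in ICH and 0.704, 0.368 and 0.349 CPM in sham. The groups did not overlap, with sham the lowest. It rose 3.05-fold in ICH against sham (log2 change 1.61 ± 0.38, edgeR adjusted p = 0.0102). Adamts10, a fibrillin-binding member, had 32.1, 34.2 and 30.9 CPM in ICH+P7C3-A20, 29.2, 33.3 and 34.7 CPM in ICH and 23.2, 22.0 and 26.6 CPM in sham. Both injured groups lay above sham and overlapped each other. Adamts10 rose 1.35-fold in ICH against sham (log2 change 0.44 ± 0.11, edgeR adjusted p = 0.0169), a call that ended without ICH 2 (0.0598), ICH 3 (0.0723), sham 1 (0.0604) and sham 2 (0.0590). In ICH+P7C3-A20 against sham its log2 change was of the same size and missed the threshold (0.44 ± 0.11, edgeR adjusted p = 0.0532).

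The other 6 Adamts genes, Adamts6, Adamts12, Adamts13, Adamts16, Adamts17 and Adamts19, were not called in any comparison. Adamts13, the protease of von Willebrand factor made mainly in liver, was at 0 in ICH 1 and 2 and sham 1 and 2 and reached at most 0.546 CPM. Adamts12 had a log2 change of 1.07 ± 0.53 in ICH against sham with no overlap of the groups (edgeR adjusted p = 0.176). Adamts17 had 0.64 ± 0.25 in ICH+P7C3-A20 against ICH (edgeR adjusted p = 0.148) and Adamts19 -1.71 ± 0.69 (edgeR adjusted p = 0.154), both with groups that did not overlap.

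Per transcript length, the 4 Timp genes together held 63.3 ± 2.94% of the FPKM of the 42 members in ICH+P7C3-A20, 65.3 ± 0.897% in ICH and 62.9 ± 11.6% in sham. Sham 3, at 49.4%, was the library in which the proteinases outweighed the inhibitors. Summed over the 4 Timp genes, FPKM reached 95.8 ± 5.49 in ICH+P7C3-A20, 135 ± 7.93 in ICH and 95.6 ± 25.1 in sham. The 19 Mmp genes summed to 34.3 ± 5.65 FPKM in ICH+P7C3-A20, 42.3 ± 3.32 FPKM in ICH and 31.9 ± 8.66 FPKM in sham. The 19 Adamts genes summed to 21.8 ± 4.51 FPKM in ICH+P7C3-A20, 29.3 ± 2.90 FPKM in ICH and 22.8 ± 2.95 FPKM in sham. Timp1 held 12.2 ± 4.07% of the Timp sum in ICH+P7C3-A20, 32.8 ± 0.987% in ICH and 0.516 ± 0.208% in sham. In order of mean level Timp1 had rank 4 of the 42 members in ICH+P7C3-A20 at 11.8 ± 4.18 FPKM, between Mmp17 (14.2 ± 1.97 FPKM) and Mmp24 (6.12 ± 0.630 FPKM), and did not differ from Mmp17 beyond the spread. In ICH it had rank 2 at 44.1 ± 1.40 FPKM, below Timp2 and above Timp3 (17.0 ± 1.55 FPKM) by more than the spread, and in sham it averaged 0.462 ± 0.104 FPKM. Sham 3 had the lowest Timp sum of all libraries, at 66.6 FPKM against 111 and 108.9 FPKM in sham 1 and 2, and its Mmp sum of 41.9 FPKM exceeded the 25.9 and 28.1 FPKM of those libraries. FPKM is relative to all transcripts of a library, and these sums are descriptions with no test.

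**Figure D4:**
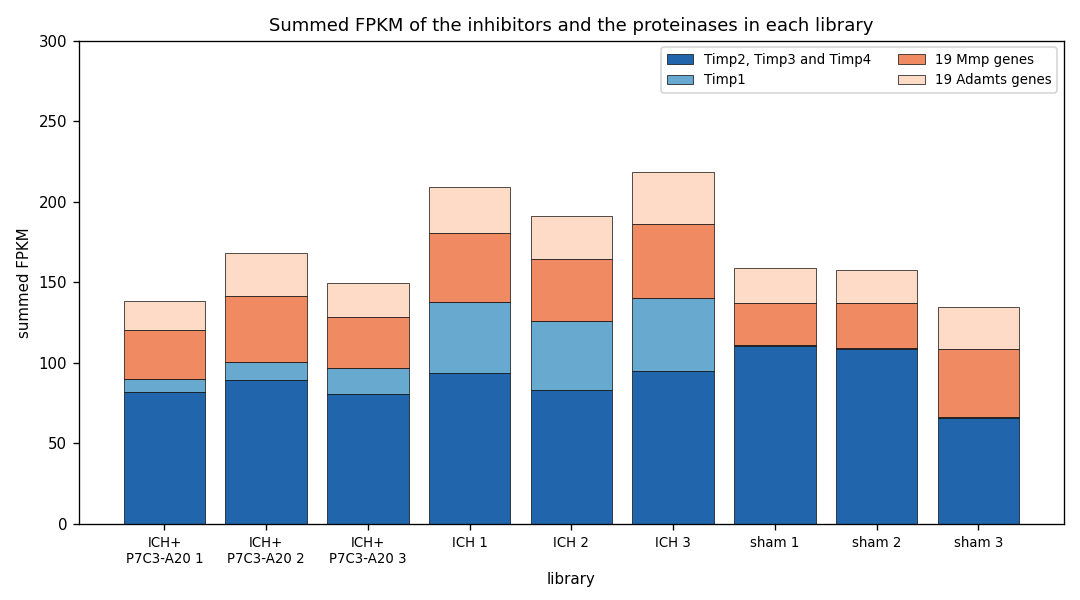
Summed FPKM per library, stacked as Timp2 to Timp4, Timp1, the 19 Mmp genes and the 19 Adamts genes, for the 3 libraries each of ICH+P7C3-A20, ICH and sham. The Timp1 layer is thick in ICH (44.1 FPKM on average), thinner in ICH+P7C3-A20 (11.8 FPKM) and hardly visible in sham (0.462 FPKM), and sham 3 has the smallest layer of Timp2 to Timp4.

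Genes that activate, inhibit or bind these proteinases were described from a list of 26. Over all genes, 15.6% were called higher and 10.4% lower in ICH against sham, 2.69% higher and 6.05% lower in ICH+P7C3-A20 against ICH, and 4.58% higher and 0.744% lower in ICH+P7C3-A20 against sham. In ICH against sham 15 rose and 2 fell (median log2 change 0.76, against 0.00 for all genes), and in ICH+P7C3-A20 against ICH all 11 genes called fell (median -0.45, against -0.01). In ICH+P7C3-A20 against sham 10 rose and 1 fell (median 0.38, against 0.03). Lcn2, whose product binds Mmp9, averaged 36.2 ± 15.3 CPM in ICH+P7C3-A20, 104 ± 15.5 CPM in ICH and 0.728 ± 0.398 CPM in sham. It rose in ICH against sham (log2 change 7.13 ± 0.43, edgeR adjusted p = 6.84e-06) and was lower in ICH+P7C3-A20 than in ICH (-1.53 ± 0.32, edgeR adjusted p = 0.0203). The plasminogen activator gene Plau averaged 5.56 ± 2.06 CPM in ICH+P7C3-A20, 12.5 ± 0.472 CPM in ICH and 1.47 ± 0.299 CPM in sham (3.09 ± 0.29 for ICH against sham, edgeR adjusted p = 3.94e-05). Furin, which cleaves pro-Mmp14 and Adamts proenzymes, averaged 55.3 ± 3.55 CPM in ICH and 28.6 ± 3.36 CPM in sham (0.95 ± 0.11, edgeR adjusted p = 1.16e-04). Serpina3n and Cd44, a docking receptor for Mmp9, both rose in ICH against sham (5.95 ± 0.36 and 3.74 ± 0.37) and were lower in ICH+P7C3-A20 than in ICH (-1.69 ± 0.30 and -1.67 ± 0.34, edgeR adjusted p of 0.00974 and 0.0164). Lcn2, Serpina3n and Cd44 are also in the reactive astrocyte list given with Timp1.

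Of 11 ADAM genes, which encode membrane relatives of the ADAMTS enzymes and include sheddases, 10 could be tested. In ICH against sham 7 rose and 2 fell (median log2 change 0.63, against 0.00 for all genes), and in ICH+P7C3-A20 against ICH 1 rose and 4 fell (median -0.31, against -0.01). In ICH+P7C3-A20 against sham 2 rose and 1 fell (median 0.19, against 0.03), next to the shares of all genes given with the first list. Adam8, a sheddase of myeloid cells, averaged 22.0 ± 7.17 CPM in ICH+P7C3-A20, 68.7 ± 3.11 CPM in ICH and 3.53 ± 0.920 CPM in sham (4.28 ± 0.27, edgeR adjusted p = 6.35e-06, for ICH against sham and -1.64 ± 0.24, edgeR adjusted p = 0.00682, for ICH+P7C3-A20 against ICH). The 2 that fell in ICH, Adam22 and Adam23, encode catalytically inactive neuronal adhesion proteins and had log2 changes of -0.58 ± 0.10 and -0.79 ± 0.10 (edgeR adjusted p = 0.00191 and 2.30e-04). The alpha-secretase gene Adam10 rose in ICH (0.62 ± 0.11, edgeR adjusted p = 0.00267) and was lower in ICH+P7C3-A20 than in ICH (-0.50 ± 0.11, edgeR adjusted p = 0.0247).

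Known substrates of the proteinases in brain matrix and barrier made a list of 31. In ICH against sham 19 rose and 1 fell (median log2 change 0.70, against 0.00 for all genes), and in ICH+P7C3-A20 against ICH 2 rose and 14 fell (median -0.40, against -0.01). In ICH+P7C3-A20 against sham 11 rose and 1 fell (median 0.39, against 0.03), again next to the same shares. The von Willebrand factor gene Vwf averaged 47.3 ± 4.80 CPM in ICH+P7C3-A20, 107 ± 7.52 CPM in ICH and 14.8 ± 3.26 CPM in sham (2.85 ± 0.16, edgeR adjusted p = 6.02e-06, for ICH against sham and -1.18 ± 0.15, edgeR adjusted p = 0.00634, for ICH+P7C3-A20 against ICH). The basal lamina genes Col4a1 and Hspg2 rose in ICH against sham (2.10 ± 0.15 and 2.01 ± 0.15) and were lower in ICH+P7C3-A20 than in ICH (-1.03 ± 0.14 and -0.99 ± 0.14, edgeR adjusted p = 0.00640 and 0.00676). Fibronectin (Fn1) averaged 178 ± 41.1 CPM in ICH+P7C3-A20, 431 ± 53.0 CPM in ICH and 51.2 ± 12.6 CPM in sham, and tenascin C (Tnc) 19.1 ± 7.40, 57.7 ± 3.93 and 5.11 ± 1.0 CPM in the same groups. The 1 substrate gene that fell in ICH was Reln, which encodes the Adamts3 substrate reelin. Reln averaged 74.2 ± 1.99 CPM in ICH+P7C3-A20, 49.8 ± 3.07 CPM in ICH and 111 ± 24.5 CPM in sham (-1.15 ± 0.14, edgeR adjusted p = 2.03e-04, for ICH against sham and 0.58 ± 0.14, edgeR adjusted p = 0.0319, for ICH+P7C3-A20 against ICH). Adamts3 itself, given above, was lower in ICH than in sham as well. The part of the cell markers given above in the changes of these 3 lists was not tested.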

How the data were processed

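The deposited table gives, per the file headers, FPKM and whole-number counts per gene for 9 libraries. Per the submitters' processing notes, the tools were StringTie 1.3.4d, HISAT2 2.0.4 and cutadapt 1.9. The library kit marks strand (dUTP), per the labels' protocols, but neither genome build nor counting step nor its strand setting is given in the sources used here. For single-transcript genes with 1 to 50 counts, 98.0 to 98.54% of the deposited counts were within 1 of FPKM times length, scaled per library and rounded up, so these deposited values were treated as estimated counts.

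Genes passing filterByExpr (minimum count 10, total 15) were scaled by TMM and tested with the edgeR 4.0.16 quasi-likelihood test (R 4.3.3) over all 9 libraries, with Benjamini-Hochberg adjustment over 21900 genes and a threshold of 0.05. Groups come from the labels. The labels do not say whether libraries of a group share a litter or day, and p-values measure the spread between these mice, 1 per library. The alternatives were other filters, upper-quartile and relative log expression scaling, DESeq2 1.42.0, limma 3.58.1 on log2(FPKM + 1) and log2(FPKM + 0.1), the 2 groups alone, a replicate block and leaving out each library. The edgeR fit was tested on simulated data.

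Members and gene lists were chosen with earlier results of these data known. Values in every library are given for members called in any comparison with a group mean of at least 1 CPM, all Timp genes, Mmp2, Mmp3, Mmp9 and Mmp14. Up to 6 called genes with the smallest p could be named per pathway list and comparison, and Reln was named after its values were seen. Values of 1 listed gene are not reported here. A planned search of protein sequences was not done. Python 3.11.15, pandas 2.3.3 and matplotlib 3.10.9 were used.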

Additional observations from a re-analysis of the deposited data

How the results depend on the processing

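Calls by edgeR over the 42 members were compared with 16 alternatives in each comparison. The count of members higher in ICH than in sham stayed within 1.5 times of 22 in all of them, at 18 to 20 with a library left out, and members lower numbered 1 with limma on log2(FPKM + 1), 5 on quantile-normalized values, 1 on log2(FPKM + 0.1) and 1 to 3 with a library left out. For ICH+P7C3-A20 against ICH, 13 members were lower with DESeq2 and 10 with limma on log2(FPKM + 1), and 2 to 7 with a library left out. Members higher there numbered 0 with limma on log2(FPKM + 1), 1 on quantile-normalized values, 0 on log2(FPKM + 0.1) and 0 to 2 with a library left out. For ICH+P7C3-A20 against sham, members higher numbered 1 with limma on log2(FPKM + 1), 2 on quantile-normalized values, 4 on log2(FPKM + 0.1), 2 with the 2 groups alone and 5 to 8 with a library left out, and members lower 1 with DESeq2 and 0 to 2 with a library left out. The cause of these shifts was not tested. Over all genes, quantile normalization of FPKM turned 3418 higher and 2283 lower calls in ICH against sham into 2915 higher and 3291 lower.

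The labels do not say that the replicate numbers pair the animals, and the correlations below cannot exclude a shared day or litter. Deviations of same-numbered libraries correlated at -0.128 to 0.0919 over 9 pairs, and those of libraries with different numbers at -0.0784 to 0.192 over 18 pairs. With a replicate block, 22 members were higher and 3 lower in ICH than in sham, 1 was higher and 6 lower in ICH+P7C3-A20 than in ICH (without Mmp3, at an edgeR adjusted p of 0.0553, and Adamts18, at 0.0662, and with Adamts2 added), and 7 were higher and 1 (Adamts2) lower in ICH+P7C3-A20 than in sham.

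Among log2 changes of the members given in every library, 1011 values under the alternatives kept the direction and the side of the threshold, 91 missed the threshold, 27 newly passed it and 22 turned direction, each of them for a change that was not called. For ICH against sham, Timp3 turned with upper-quartile scaling (-0.032), relative log expression scaling (-0.0082) and DESeq2 (-0.0082), and ranged from -0.18 to 0.13 with a library left out. For ICH+P7C3-A20 against ICH, Adamts10 turned without a filter (-0.028) and with limma on log2(FPKM + 1) (-0.040) and log2(FPKM + 0.1) (-0.051), and ranged from -0.069 to 0.052 with a library left out, while Timp2 ranged from -0.12 to 3.9e-04. For ICH+P7C3-A20 against sham, quantile normalization turned Mmp11 (-0.050) and Adamts18 (-0.039), as did limma on log2(FPKM + 0.1) for Adamts18 (-0.0012). With a library left out that change ranged from -0.18 to 0.28 for Mmp11, -0.35 to 0.23 for Adamts18, -0.039 to 0.38 for Timp4, -0.074 to 0.23 for Timp3 and -0.10 to 0.016 for Mmp24. With 3 animals a group and members near or at 0 counts in sham, the sizes of changes against sham in the chromosome 9 run are poorly fixed.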
